A study of Arabidopsis thaliana with 12 samples.

Results

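The cysteine-rich receptor-like kinases (CRKs) of Arabidopsis thaliana were followed across the kaku4-2 mutant and the wild type (WT). The family was defined by locus: 42 members were listed by locus identifier, among them the 20 genes of the tandem cluster AT4G23130 to AT4G23320. No expression threshold was applied to the list, but it was chosen with earlier results of these data known. Of these, 41 were rows of the deposited table of 23069 genes. CRK33 (AT4G11490) was not a row of the table, and 36 members passed the filter on low values, out of 20638 genes tested.

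The study asked how KAKU4, a component of the plant nuclear lamina, shapes chromatin states and gene expression in leaves. RNA-seq was performed on rosette leaves of 30-day-old plants, with 3 libraries of kaku4-2 and 3 libraries of WT described as independent biological replicates. The kaku4-2 line (SALK_076754) carries a T-DNA insertion in KAKU4 and is a knockdown line, in which KAKU4 RNA is reduced but not lost, and the WT plants were Col-0; it was the only mutant line sequenced. ChIP-seq libraries of the same series were not analysed here. Expression was given as FPKM, fragments per kilobase of transcript scaled to the mapped fragments of the library, so that levels can be compared between genes of different length.

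CRKs are receptor-like kinases of the plasma membrane. Outside the cell they usually carry a pair of DUF26 domains, each with a conserved motif of 3 cysteines, and inside the cell a serine/threonine kinase domain. Many of them respond at the transcript level to pathogens, salicylic acid and reactive oxygen species, several have been linked to immune signalling and to hypersensitive-like cell death when overexpressed, and WRKY transcription factors are known to bind W-box elements in the promoters of some members.

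The part that most members share is shown first, although the members were listed and grouped by locus and not by this motif. In the RefSeq annotation (TAIR10.1), 36 of the 41 members with an annotated protein had 2 copies of the DUF26 motif (a cysteine, 8 residues, a cysteine, 2 residues and a cysteine), 37 had both kinase motifs searched, and 26 of the 42 loci had 7 exons in their longest transcript. The coding bases of the motif nearest the amino terminus are printed 5′ to 3′ on the coding strand, with the 3 cysteine codons in capitals, for 7 of the 12 members upregulated in the comparison below and for CRK9, the most abundant member. Each stretch of 39 bases lies within a single exon.
CRK7, chr4:12125983-12126021, plus strand: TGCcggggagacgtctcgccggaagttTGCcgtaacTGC
CRK9, chr4:12135457-12135495, plus strand: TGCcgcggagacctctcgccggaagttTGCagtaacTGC
CRK19, chr4:12171379-12171417, plus strand: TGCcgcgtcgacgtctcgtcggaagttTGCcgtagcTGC
CRK4, chr3:16865739-16865777, minus strand: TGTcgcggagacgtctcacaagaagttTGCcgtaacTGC
CRK11, chr4:12143435-12143473, minus strand: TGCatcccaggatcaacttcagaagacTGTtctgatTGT
CRK39, chr4:2259817-2259855, plus strand: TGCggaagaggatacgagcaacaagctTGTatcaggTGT
CRK40, chr4:2290285-2290323, plus strand: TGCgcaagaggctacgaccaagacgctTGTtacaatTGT
CRK2, chr1:26587032-26587070, minus strand: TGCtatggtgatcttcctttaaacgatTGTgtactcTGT

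Of the 39 bases, CRK9 shared 36 with CRK7, and CRK19 and CRK4 shared 34 each, whereas CRK39 and CRK40 shared 19 each and CRK11 and CRK2 shared 17 each. In alignments of the proteins, CRK7 and CRK9 were 78.1% identical over 265 aligned residues, the whole of CRK9 but only a part of the 659 residues of CRK7. CRK39 and CRK40 were 79.8% identical over 652 aligned residues, and CRK2 was 44.6% identical to its closest member, CRK42, over 621. The closest pair of all was CRK19 and CRK20 at 84.9% identity. CRK9 (AT4G23170, annotated as EP1) encodes 265 residues from a single exon and holds neither kinase motif, and CRK45 (AT4G11890, annotated as ARCK1) encodes 354 residues with no DUF26 motif, so that these members hold different parts of the usual receptor. AT4G11500 is annotated as a transcribed pseudogene and is called here by its locus.

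Because 12 members were upregulated and none downregulated by the cutoff described below, the 250 bases before the annotated transcript start are printed for 4 members, with each W-box core (TTGAC, on either strand, so that GTCAA is the core on the opposite strand) in capitals. CRK11 and CRK5 are shown for their clustered cores, and CRK7 and CRK39 because they had the largest log2 fold changes of the family.
CRK11, chr4:12143859-12144108, minus strand: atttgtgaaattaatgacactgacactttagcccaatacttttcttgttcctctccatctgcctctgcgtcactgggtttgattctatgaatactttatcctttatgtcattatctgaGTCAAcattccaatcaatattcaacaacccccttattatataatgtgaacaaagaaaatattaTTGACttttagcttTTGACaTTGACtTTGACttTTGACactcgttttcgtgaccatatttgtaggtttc
CRK5, chr4:12120221-12120470, minus strand: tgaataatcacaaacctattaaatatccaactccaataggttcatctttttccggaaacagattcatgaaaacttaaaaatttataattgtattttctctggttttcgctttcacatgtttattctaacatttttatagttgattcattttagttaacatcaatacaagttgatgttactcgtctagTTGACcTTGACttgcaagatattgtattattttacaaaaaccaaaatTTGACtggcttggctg
CRK7, chr4:12125414-12125663, plus strand: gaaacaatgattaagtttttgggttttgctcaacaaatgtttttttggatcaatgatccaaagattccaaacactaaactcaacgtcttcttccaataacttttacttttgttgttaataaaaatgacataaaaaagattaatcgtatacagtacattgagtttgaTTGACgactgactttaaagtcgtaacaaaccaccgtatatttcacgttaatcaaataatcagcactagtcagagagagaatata
CRK39, chr4:2259248-2259497, plus strand: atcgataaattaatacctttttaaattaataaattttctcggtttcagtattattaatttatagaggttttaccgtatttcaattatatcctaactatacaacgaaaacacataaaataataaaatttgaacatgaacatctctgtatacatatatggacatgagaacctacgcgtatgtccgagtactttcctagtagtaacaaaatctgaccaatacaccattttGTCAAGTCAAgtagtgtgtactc

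CRK11 held 6 W-box cores in these 250 bases, 5 of them within 69 bases of the transcript start, and CRK5 held 3. In a window of 250 bases before to 50 bases after the start, 31 of the 41 members with a promoter window (75.6%) held at least 1 W-box core, against 50.5% of 27444 protein-coding genes, and 17 members held 2 or more, against 17.7% of all windows. The as-1 core (TGACG, either strand), a motif of TGA factors, was in 16 members (39.0%) and in 23.1% of all windows. The motifs can share bases, since TTGACG holds both. These are matches of letters, and tandem copies share sequence by descent. Of the members tested, 9 of 26 with a W-box core were called upregulated in kaku4-2, and 3 of 9 without one.

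KAKU4 (AT4G31430) had 0.402, 0.433 and 0.313 FPKM in kaku4-2 and 2.69, 3.61 and 2.51 FPKM in WT, and the genotypes did not overlap (log2 fold change −2.64, limma adjusted p = 0.00933). Leaf markers were at high levels, with RBCS1A, the small subunit of Rubisco, between 6461 and 9455 FPKM. The 3 mesophyll genes tested all had negative log2 fold changes. LHCB2.1 had 3156, 3520 and 3607 FPKM in kaku4-2 and 4195, 6695 and 5724 FPKM in WT (log2 fold change −0.67). None of the mesophyll, 2 guard cell, 2 phloem and 2 epidermis genes passed the cutoff described below with all libraries. Without kaku4-2 replicate 3, LHCB2.1 and the epidermis gene PDF1 were downregulated (log2 fold changes −0.71 and −0.78). Of the markers of other organs, the root hair gene COBL9 and the seed storage gene CRA1 were at 0.149 FPKM or less in every library, whereas the seed gene OLEO1 reached 0.498 FPKM, the flower genes AG and AP3 reached 0.486 and 0.916 FPKM, and SCR, listed as a root gene, was between 3.72 and 6.02 FPKM. The deposited FPKM come without fragment counts, so no counting error is given for any value. The library of kaku4-2 replicate 3 stood apart from the others: its correlations with them were between 0.895 and 0.936, against 0.963 to 0.981 among the other 5 libraries. Its values also followed transcript length. For transcripts of 1800 to 3200 bases, the median deviation from the gene mean on the log2 scale was −0.06, −0.05 and 0.54 in the 3 kaku4-2 libraries and 0.07, −0.09 and −0.27 in the 3 WT libraries, and for transcripts of up to 1000 bases it was −0.93 in kaku4-2 replicate 3 and 0.55 in WT replicate 3. Of the 36 CRK members tested, 33 had transcripts of 1800 to 3200 bases, so the counts of members and the fold changes of those called are also given without this library and with the length trend of each library removed.

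**Figure D1:**
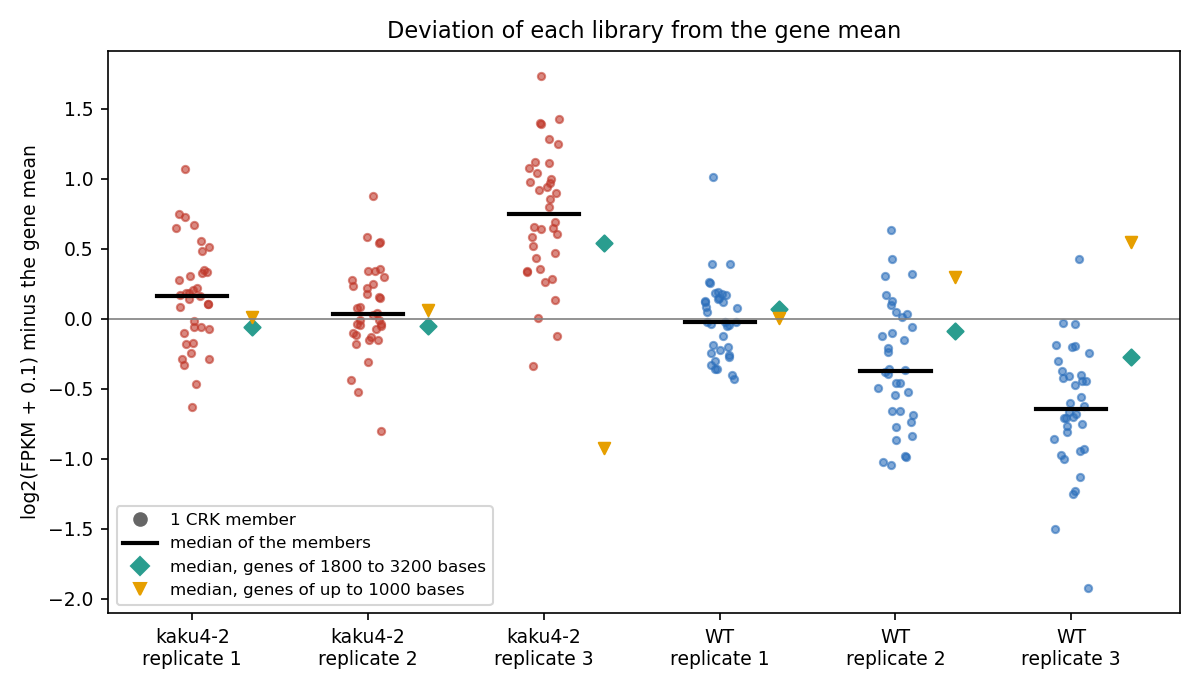
Deviation of each library from the gene mean, on the log2(FPKM + 0.1) scale, for the 36 CRK members tested (points, with their median as a bar), with the medians over all tested genes with transcripts of 1800 to 3200 bases (diamonds) and of up to 1000 bases (triangles). The members' medians were 0.17, 0.04 and 0.75 in kaku4-2 replicates 1, 2 and 3 and −0.02, −0.37 and −0.65 in WT replicates 1, 2 and 3, so kaku4-2 replicate 3 and WT replicate 3 lie at the ends for the members as for other genes of their length.

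Several CRK transcripts were more abundant in kaku4-2 leaves by the cutoff of the study, and none was less abundant. The study called a gene changed where the medians of the genotypes differed by 0.6 or more on the log2 scale with a P, not adjusted, of 0.05 or less. By this cutoff, with the P from limma, 12 of the 36 members tested (CRK2, CRK3, CRK4, CRK7, CRK10, CRK11, CRK18, CRK19, CRK36, CRK37, CRK39 and CRK40) were upregulated and 0 were downregulated. Over all genes tested, 5.02% were upregulated and 6.64% were downregulated by the same rule. These shares rest on the limma P and are not those of the study. The study reported more genes in each direction, and more upregulated than downregulated ones. Among the 7236 genes with transcripts of 1800 to 3200 bases, 7.10% were upregulated and only 260 genes were downregulated. The limma log2 fold change was positive for 33 of the 36 members. It was positive for 10092 of the 20638 genes tested and for 4786 of the 7236 genes of 1800 to 3200 bases. The members' median was 0.67, against −0.02 over all genes tested and 0.24 over the genes of 1800 to 3200 bases. Without kaku4-2 replicate 3, 30 members were positive, against 3853 of 7162 genes of this length. With the length trend removed, 30 members were positive, against 3726 of 7236 such genes. No member reached an adjusted p of 0.05 (limma, Benjamini-Hochberg over all genes), where 0.480% of all genes did. An unadjusted limma p of 0.05 or less was reached by 12 of the 36 members. It was also reached by 3105 of the 20638 genes tested and by 896 of the 7236 genes of 1800 to 3200 bases. The lowest adjusted p of a member was 0.151, for CRK7. In bulk leaves, more cells that express a gene and more RNA per cell cannot be told apart.

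The count of upregulated members depended on the libraries. Without kaku4-2 replicate 3, 9 members were upregulated, 7 of them among the 12, against 4.65% of all genes, and the members' median log2 fold change was 0.41. With the length trend removed, 9 were upregulated, all among the 12, against 6.86% of all genes, and the median was 0.36, against 0.02 over the genes of 1800 to 3200 bases. With both steps, 11 were upregulated, 9 of them among the 12, against 5.74% of all genes, with a median of 0.38. Without WT replicate 3, in which 24 of the 36 members had their lowest WT value, 7 members were upregulated, against 2.64% of all genes. Without WT replicate 2, 8 were, against 2.91% of all genes. Of the 12, CRK3, CRK10, CRK18, CRK36 and CRK40 were lost without WT replicate 3. Those lost without WT replicate 2 were CRK2, CRK3, CRK18, CRK36, CRK37 and CRK40. CRK4, CRK7, CRK11 and CRK19 were upregulated in all 17 fits tried with this cutoff, whereas CRK3 was in 8 and CRK36 in 9.

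Every kaku4-2 library was above every WT library for 12 members, against 7.92% of all genes tested. No member had every kaku4-2 library below every WT library, against 15.0% of all genes, and these shares were not counted by transcript length. The 12 were CRK2, CRK4, CRK7, CRK10, CRK11, CRK16, CRK19, CRK24, CRK36, CRK37, CRK39 and CRK40. For each of them the exact two-sided permutation test gave p = 0.1, and no lower value is possible with 3 libraries of each genotype. Within kaku4-2, replicate 3 held the highest value for 29 of the 36 members.

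**Figure D2:**
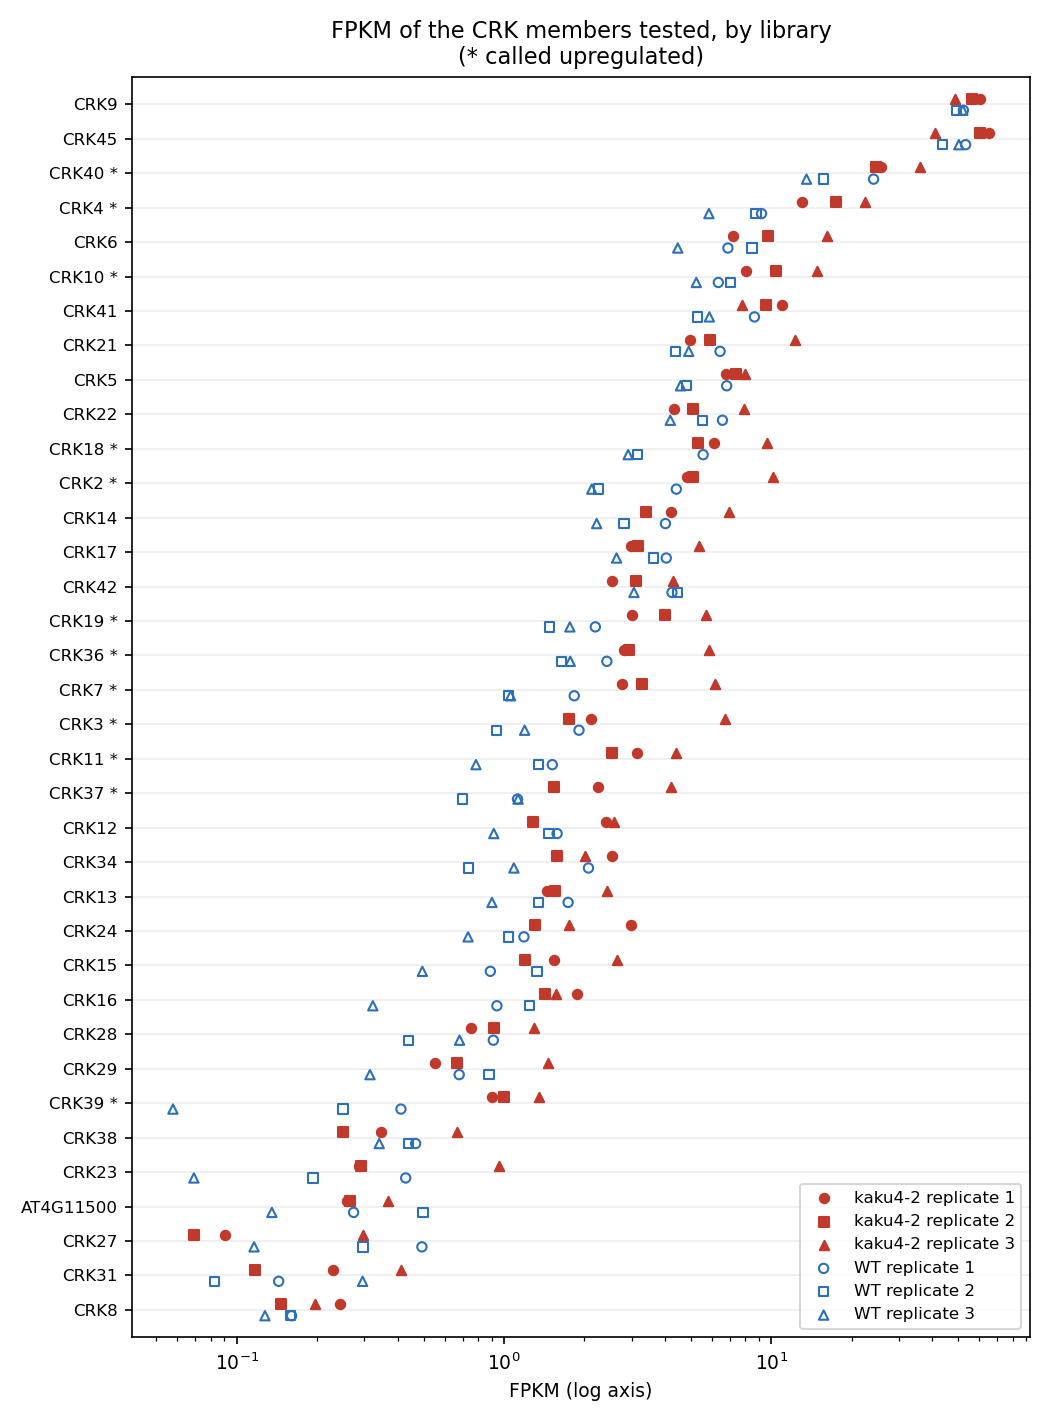
FPKM of the 36 CRK members tested in each of the 3 kaku4-2 libraries (filled) and 3 WT libraries (open), on a log axis, ordered by mean FPKM, with an asterisk on the 12 upregulated members. Levels ran from 0.0577 FPKM, for CRK39 in WT replicate 3, to 65.2 FPKM, for CRK45 in kaku4-2 replicate 1.

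Levels differed between members by more than 2 orders of magnitude, and neither of the most abundant ones was called. CRK9, a member without a kinase motif, had 60.1, 56.3 and 48.8 FPKM in kaku4-2 and 52.3, 49.4 and 52.1 FPKM in WT. CRK45, a receptor-like cytoplasmic kinase known from abscisic acid and osmotic stress responses, had 65.2, 60.2 and 40.9 FPKM in kaku4-2 and 53.3, 43.8 and 50.3 FPKM in WT. In both, the genotypes overlapped, kaku4-2 replicate 3 was the lowest of the 6 libraries, and the log2 fold changes were 0.10 ± 0.25 and 0.15 ± 0.28 (SE, n = 3 each; limma, neither past the cutoff). The transcripts of CRK9 and CRK45, at 1824 and 1612 bases, are among the shortest of the family. Yet AT4G11500 and CRK15, at 1419 and 1884 bases, had their highest kaku4-2 value in replicate 3. Whether length bears on these patterns was not tested. Together they made up between 29.4% and 48.2% of the summed FPKM of the family in kaku4-2 and between 46.6% and 57.4% in WT. The rest of the family summed to 135, 139 and 215 FPKM in kaku4-2 and to 121, 94.2 and 76.1 FPKM in WT, and every kaku4-2 sum was above every WT sum. These are sums of the deposited FPKM, with the length trend not removed. The FPKM of all genes also summed to unlike totals, from 829805 in kaku4-2 replicate 3 to 1767459 in WT replicate 3.

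The tandem cluster spans chr4:12117491-12191704, 74214 bases that hold 20 CRK genes and, among protein-coding genes, only AT4G23271 besides. Of its 19 members tested, 5 were upregulated (CRK7, CRK10, CRK11, CRK18 and CRK19), none was downregulated and 14 did not pass, with log2 fold changes from 0.06 to 1.52 and a median of 0.70. The median was 0.40 without kaku4-2 replicate 3, with 4 upregulated, and 0.47 with the length trend removed, with 5 upregulated.

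CRK7 (AT4G23150), linked to responses to extracellular reactive oxygen species, had 2.76, 3.29 and 6.14 FPKM in kaku4-2 and 1.83, 1.04 and 1.06 FPKM in WT. The genotypes did not overlap, and kaku4-2 replicate 3 was far above the other mutant libraries. Its log2 fold change was 1.52 ± 0.42 (SE, n = 3 each; limma adjusted p = 0.151), on the log2(FPKM + 0.1) scale that holds for all fold changes here, and it was 1.19 without kaku4-2 replicate 3 and 1.32 with the length trend removed. CRK11 (AT4G23190), a pathogen-responsive member with 6 W-box cores in the bases printed above, had 3.15, 2.53 and 4.41 FPKM in kaku4-2 and 1.52, 1.34 and 0.785 FPKM in WT. All mutant libraries were above all WT libraries, at a log2 fold change of 1.41 ± 0.40 (SE, n = 3 each; limma adjusted p = 0.171), of 1.20 without kaku4-2 replicate 3 and of 1.14 with the length trend removed.

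CRK10 (AT4G23180), which lies next to CRK11, had 8.05, 10.4 and 14.8 FPKM in kaku4-2 and 6.34, 7.03 and 5.24 FPKM in WT. Again the genotypes did not overlap, but the gap between kaku4-2 replicate 1 and WT replicate 2 was small, and the log2 fold change of 0.79 was 0.57 without kaku4-2 replicate 3, where the call was lost, and 0.56 with the length trend removed, where it was kept. The annotated ends of CRK10 and CRK11 overlap on opposite strands, and the use of strand in counting is not given in the sources used here, so reads of that stretch may count for either gene.

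CRK19 (AT4G23270), one of the members that can trigger cell death when overexpressed, had 3.02, 4.02 and 5.71 FPKM in kaku4-2 and 2.20, 1.48 and 1.76 FPKM in WT. The genotypes did not overlap, and the log2 fold change was 1.15 ± 0.37 (SE, n = 3 each; limma adjusted p = 0.224), with 0.92 without kaku4-2 replicate 3 and 0.83 with the length trend removed. AT4G23271 overlaps it on the opposite strand. CRK18 (AT4G23260) had 6.12, 5.32 and 9.62 FPKM in kaku4-2 and 5.56, 3.16 and 2.91 FPKM in WT. Here WT replicate 1 lay above kaku4-2 replicate 2, so the genotypes overlapped, and the call was lost without kaku4-2 replicate 3 (log2 fold change 0.85, 0.61 without that library and 0.70 with the length trend removed).

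CRK16 (AT4G23240) and CRK24 (AT4G23320) lay just outside the cutoff. CRK16 had 1.88, 1.42 and 1.56 FPKM in kaku4-2 and 0.941, 1.25 and 0.323 FPKM in WT, with a log2 fold change of 1.03. CRK24 had 2.98, 1.31 and 1.74 FPKM in kaku4-2 and 1.19, 1.04 and 0.734 FPKM in WT, with a log2 fold change of 0.90. The limma adjusted p was 0.335 for each. Without kaku4-2 replicate 3 the log2 fold changes were 1.05 for CRK16, still not called, and 0.96 for CRK24, which was then upregulated, and with the length trend removed they were 0.91 and 0.77, neither called. In both the genotypes did not overlap, and, unlike in most members, kaku4-2 replicate 1 and not replicate 3 was the highest library. CRK16 overlaps CRK17 on the same strand. Just inside the cutoff was CRK3, with a limma adjusted p = 0.322.

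The other 12 members of the cluster that were tested did not pass the cutoff. CRK5 (AT4G23130) and CRK6 (AT4G23140), pathogen- and salicylic acid-responsive members, had log2 fold changes of 0.46 and 0.70. CRK6, the fifth in level over the family, had 7.22, 9.74 and 16.1 FPKM in kaku4-2 and 6.88, 8.48 and 4.47 FPKM in WT, and its genotypes overlapped. CRK13 (AT4G23210), known to raise resistance to Pseudomonas when overexpressed, had a log2 fold change of 0.43, and CRK12, CRK14, CRK15, CRK21 and CRK23 lay between 0.45 and 0.93. CRK8, CRK9, CRK17 and CRK22 were lowest, between 0.06 and 0.24, and CRK8, CRK17 and CRK22 turned negative with the length trend removed. CRK6, CRK8, CRK13 and CRK22 share between 10.6% and 12.6% of their 75-base stretches with other places in the genome, so their values are less certain than those of the other members, where the share was at most 2.61%. CRK20 (AT4G23280), the closest relative of CRK19, was at 0.140 FPKM or less in every library and was not tested.

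**Figure D3:**
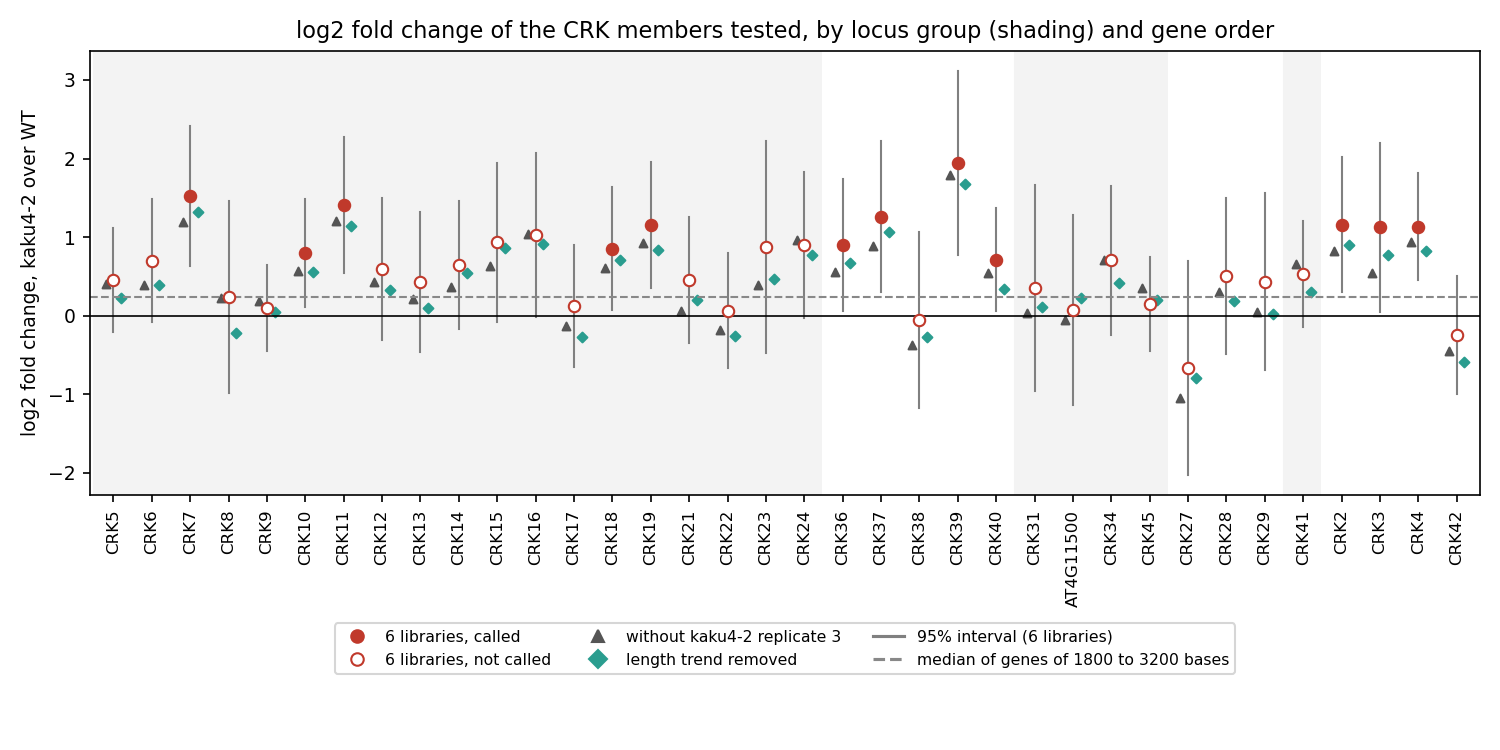
log2 fold change, kaku4-2 over WT, of the 36 CRK members tested, by locus group and gene order, with 95% intervals from limma (filled circles, upregulated; open circles, not called), the value without kaku4-2 replicate 3 (triangles) and with the length trend removed (diamonds). Within the tandem cluster all 19 circles lie above 0, from 0.06 for CRK22 to 1.52 for CRK7, and most triangles and diamonds lie below their circles.

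The cluster at AT4G04490 to AT4G04570, with AT4G05200, held 4 upregulated members of 5 tested, none downregulated, and a median log2 fold change of 0.89. CRK39 (AT4G04540) had the largest log2 fold change of the family. It had 0.905, 0.996 and 1.36 FPKM in kaku4-2 and 0.412, 0.250 and 0.0577 FPKM in WT, with WT replicate 3 at the lowest value above 0 that the table holds. The genotypes did not overlap, but the WT values are low (log2 fold change 1.94 ± 0.54, SE, n = 3 each; limma adjusted p = 0.165), and the log2 fold change was 1.47 without WT replicate 3, 1.79 without kaku4-2 replicate 3 and 1.68 with the length trend removed.

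CRK40 (AT4G04570), its close relative, was far more abundant, at 25.8, 24.7 and 35.9 FPKM in kaku4-2 and 24.1, 15.7 and 13.5 FPKM in WT. The genotypes did not overlap by a narrow margin, and the log2 fold change of 0.71 was 0.55 without kaku4-2 replicate 3 and 0.34 with the length trend removed, both short of the cutoff. CRK37 (AT4G04500) had 2.24, 1.54 and 4.21 FPKM in kaku4-2 and 1.12, 0.699 and 1.13 FPKM in WT, at a log2 fold change of 1.26 ± 0.45 (SE, n = 3 each; limma adjusted p = 0.257). All its mutant libraries were above all WT libraries. CRK37 was also upregulated without kaku4-2 replicate 3 (0.88) and with the length trend removed (1.07), but not without WT replicate 2. CRK36 (AT4G04490), known to act with CRK45 in abscisic acid and osmotic stress signalling, had 2.81, 2.95 and 5.85 FPKM in kaku4-2 and 2.43, 1.64 and 1.77 FPKM in WT. Its genotypes did not overlap, yet kaku4-2 replicate 3 held about as much as the other mutant libraries together, and the log2 fold change of 0.89 was 0.56 without it and 0.68 with the length trend removed, neither past the cutoff. CRK38 (AT4G04510), between them on the chromosome, had a log2 fold change of −0.06, and CRK25 (AT4G05200) was at 0.130 FPKM or less in every library.

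**Figure D4:**
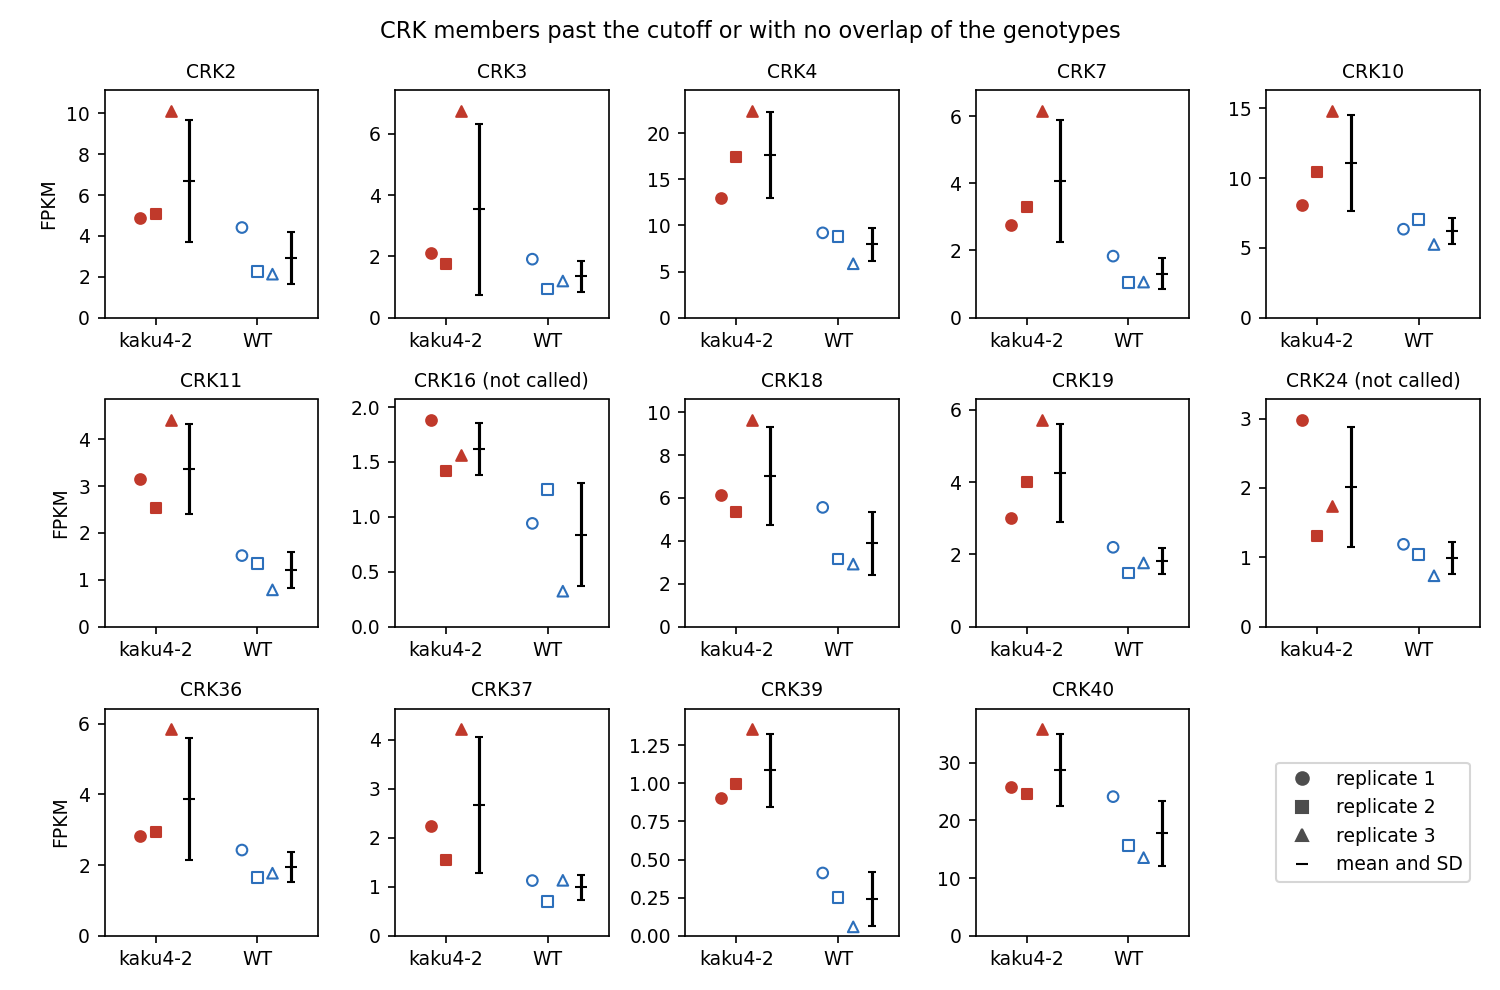
FPKM in each library of the 14 CRK members that were upregulated or whose genotypes did not overlap, kaku4-2 on the left and WT on the right of each panel, with the mean and SD of 3 libraries. In CRK2, CRK3 and CRK36 kaku4-2 replicate 3 (triangle) lies far above the other kaku4-2 libraries, and in CRK16 and CRK24 kaku4-2 replicate 1 is the highest.

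Of the 4 members on chromosomes 1, 3 and 5, 3 were upregulated. CRK4 (AT3G45860), which can trigger cell death when overexpressed, had 13.0, 17.4 and 22.4 FPKM in kaku4-2 and 9.19, 8.77 and 5.84 FPKM in WT. The lowest mutant library was well above the highest WT library, at a log2 fold change of 1.13 ± 0.32 (SE, n = 3 each; limma adjusted p = 0.162), of 0.94 without kaku4-2 replicate 3 and of 0.82 with the length trend removed. CRK2 (AT1G70520), known to phosphorylate the NADPH oxidase RBOHD, had 4.86, 5.09 and 10.1 FPKM in kaku4-2 and 4.41, 2.25 and 2.13 FPKM in WT. Its genotypes did not overlap, with WT replicate 1 close to kaku4-2 replicates 1 and 2 (log2 fold change 1.16, 0.82 without kaku4-2 replicate 3 and 0.89 with the length trend removed). The call of CRK2 was lost without WT replicate 2.

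CRK3 (AT1G70530), which lies next to CRK2, had 2.11, 1.75 and 6.73 FPKM in kaku4-2 and 1.91, 0.938 and 1.19 FPKM in WT. The genotypes overlapped, and the call depended on the libraries. The log2 fold change was 1.12 with all libraries, 0.54 without kaku4-2 replicate 3 and 0.78 with the length trend removed. In both of these alternatives CRK3 was no longer upregulated, and the call was also lost without WT replicate 2 or without WT replicate 3. CRK42 (AT5G40380), the closest relative of CRK2 and CRK3, was among the 3 members with a negative log2 fold change, with 2.55, 3.12 and 4.28 FPKM in kaku4-2 and 4.25, 4.45 and 3.06 FPKM in WT. It did not pass the cutoff (log2 fold change −0.25, and −0.59 with the length trend removed).

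The remaining groups held no upregulated member with all libraries. At AT4G21230 to AT4G21410, CRK28 and CRK29, which are known to associate with immune receptor complexes, had log2 fold changes of 0.50 and 0.43; their annotated transcripts overlap on the same strand, so their values are less certain. CRK27 had the lowest of the family at −0.66, with 0.493 FPKM or less in every library. At AT4G11460 to AT4G11530, CRK34 had 2.53, 1.59 and 2.01 FPKM in kaku4-2 and 2.07, 0.738 and 1.09 FPKM in WT, with overlap and a log2 fold change of 0.70, whereas CRK31 and AT4G11500 were below 0.5 FPKM. CRK30, CRK32 and CRK26 were at 0.270 FPKM or less and were not tested. CRK41 (AT4G00970) had 10.9, 9.58 and 7.80 FPKM in kaku4-2 and 8.65, 5.31 and 5.87 FPKM in WT, at a log2 fold change of 0.53. Its mutant libraries were mostly higher, kaku4-2 replicate 3 was the lowest mutant library, and it was called upregulated only in settings that left out kaku4-2 replicate 3 or WT replicate 1.

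Genes around the family were read from the same fit. Of 8 genes for proteins known to work with CRKs, 3 were upregulated and none downregulated: FLS2, the flagellin receptor, at a log2 fold change of 1.74, BIK1, a cytoplasmic kinase of immune receptors, at 1.37, and CERK1, the chitin receptor kinase, at 1.05. The coreceptor BAK1 and the NADPH oxidase RBOHD had log2 fold changes of 0.04 and 0.21. Of 6 WRKY genes, 4 were upregulated, with WRKY40 at 31.9, 31.3 and 33.5 FPKM in kaku4-2 and 13.2, 11.4 and 9.99 FPKM in WT (log2 fold change 1.48, limma adjusted p = 0.0276). WRKY40 is known to dampen defence together with WRKY18, which was also upregulated, and WRKY60 was not. Of 12 genes of salicylic acid synthesis and response, 8 were upregulated, among them SARD1, an activator of salicylic acid synthesis, at 1.65, and PR1 at 0.93, and none was downregulated. These lists were chosen with earlier results of these data known, and the medians of their log2 fold changes were 0.74, 1.02 and 0.95, against −0.02 over all genes, 0.54, 0.95 and 0.78 without kaku4-2 replicate 3, and 0.28, 1.08 and 1.05 with the length trend removed.

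Other genes with DUF26 domains were read as well. Of the 8 plasmodesmata-located proteins (PDLPs), which carry DUF26 domains but no kinase, 7 were tested, none was upregulated and 1 was downregulated, and their median log2 fold change was −0.50, against −0.22 without kaku4-2 replicate 3 and −0.49 with the length trend removed. PDLP7 (AT5G37660) had 10.8, 11.1 and 5.18 FPKM in kaku4-2 and 10.4, 17.8 and 24.3 FPKM in WT, with kaku4-2 replicate 3 lowest. It was the downregulated one, but not with the length trend removed or without that library. PDLP8 (AT3G60720) had 1.85, 2.06 and 1.98 FPKM in kaku4-2 and 2.53, 3.45 and 2.71 FPKM in WT. It was downregulated with the length trend removed (log2 fold change −0.63), but not with all libraries (−0.53) or without kaku4-2 replicate 3 (−0.53). PDLP transcripts are shorter than most CRK transcripts, between 1281 and 1955 bases for those tested. CRK43 (AT1G70740) and CRK44 (AT4G00960), further CRK genes outside the 42, were not called, at 0.60 and −0.04. None of the 28 genes annotated as cysteine-rich repeat secretory proteins was a row of the table, so they were not analysed here. Of the 10 protein-coding genes on each side of the tandem cluster, 8 were tested and none was called, with medians of 0.44 before and 0.13 after the cluster. Without kaku4-2 replicate 3 these medians were 0.07 and 0.24, and with the length trend removed 0.10 and 0.18.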

How the data were processed

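RNA from rosette leaves was sequenced as paired reads. Per the methods and the processing notes of the authors, reads were mapped on TAIR10 by TopHat2 (version 2.0.9, with Bowtie2), and the deposited FPKM values came from Cufflinks; its version, the annotation and the use of strand are not given in the sources used here. The lowest FPKM above 0 was 0.0577 in every library, so lower levels were listed as that value or 0. Every gene whose mean FPKM reached 0.1 entered a limma fit (limma 3.58.1, R 4.3.3) of log2(FPKM + 0.1) using a trended prior variance, no covariate and Benjamini-Hochberg adjustment over all genes tested; a gene was called at a log2 ratio of medians of 0.6 or more in size and an unadjusted P of 0.05 or less. The script was tested on simulated data. The length trend was removed as a lowess of each library's deviations on log2 transcript length, an alternative chosen after seeing the data. All members were named; values of every library were given for members past the cutoff, the 5 with the highest mean FPKM and those whose genotypes did not overlap. Members and lists were chosen with earlier results of these data known. Other alternatives were the pseudocount, the filter, the scaling, the prior variance, a replicate block and leaving out each library. No counts are in the table, so no counting intervals were given. Sequences are from RefSeq (TAIR10.1). ChIP-seq samples were not analysed here.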

Additional observations from a re-analysis of the deposited data

How the results depend on the processing

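With 1 library left out at a time, between 7 and 14 CRK members were upregulated, against 12 with all libraries, and over all genes between 546 and 1512 were upregulated and between 673 and 2660 downregulated, against 1037 and 1370. With an adjusted p of 0.05 in place of the unadjusted one, 0 members were upregulated (limma), and 50 genes were upregulated and 49 downregulated. The removal of the length trend gave 1405 upregulated and 1135 downregulated genes. No CRK member was downregulated, and none had an adjusted p of 0.05 or less, under any setting; the lowest adjusted p over all settings was 0.0692, for CRK7. The labels do not say whether same-numbered libraries were paired. Same-numbered libraries had correlations of −0.16, −0.03 and −0.41 in their deviations from the genotype mean, and other combinations lay between −0.30 and 0.33. These values cannot settle the pairing, since each deviation is taken from a mean of only 3 libraries. With a replicate block, 8 members were upregulated, all among the 12 (CRK10, CRK18, CRK36 and CRK40 were lost), and 706 genes were upregulated and 1017 downregulated. The other settings kept the number of upregulated members between 9 and 14. The median log2 fold change of the members stayed positive, between 0.36 and 0.82. Low levels limit CRK20, CRK25, CRK26, CRK30 and CRK32, which were listed at 0 or at the lowest value above 0 in at least 1 library each.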
